A study of Mus musculus with 48 samples.

Results

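The genes described here encode integrins, laminins, collagens, other matrix glycoproteins, matrix proteases and their inhibitors. They were 51 genes, picked by symbol and matched to the Ensembl identifiers of the count files, out of 50600 genes listed for the whole series. A filter on low counts kept 37 of the 51, and 14 stayed under it and were not tested.

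The cells were mPDAC, a cell line from a mouse pancreatic ductal adenocarcinoma that the labels give as FVB/N x C57BL6 background and 8 weeks of age. They were grown either non-treated (NT) or with 50 µM N6L, a pseudopeptide antagonist of the protein nucleolin, for 48 h. Emetine, which holds ribosomes on mRNA, was given to all cultures before lysis, nuclei and mitochondria were spun out, and polyadenylated RNA was sequenced from the cytoplasm and from the pooled polysomes of a sucrose gradient. Each treatment had 3 cultures (numbered 1, 2 and 4 for NT, and 1, 2 and 3 for N6L), each culture gave both fractions, and 4 technical replicates of each of the 12 libraries were summed. It is a single cell line, so p-values measure the spread between these cultures and nothing wider.

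Library totals ran from 19519911 to 44972333 counts. A level is given as CPM, counts scaled to a library of fixed size, after TMM scaling, so it is a share of its own library, and a fall of the whole polysomal mRNA pool is not visible in it. Levels are compared between genes only as CPM per kilobase of exons. A gene is called when its adjusted p (edgeR quasi-likelihood test, Benjamini-Hochberg adjustment over 13889 genes) is under 0.05, and changes carry their standard error (SE).

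Integrins are receptors of an alpha and a beta chain that tie the matrix to the cytoskeleton. Epithelial cells rest on a basement membrane, a sheet of laminin trimers and a type IV collagen network joined by nidogen, perlecan and agrin, while fibroblasts deposit most of the interstitial collagens. Secreted and membrane-bound metalloproteinases and the plasminogen activator urokinase cut these proteins, and the Timp proteins inhibit metalloproteinases. In pancreatic cancer much of the matrix is laid down by stromal cells, which a cell line in culture lacks.

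Ductal epithelial markers summed to between 6522 and 10746 CPM in every library, all 9 of them with counts. Of the 9, 7 passed the filter, while Epcam and Cldn4 did not and never exceeded 0.301 CPM. In the NT cytoplasm Krt8, Krt18 and Krt19 averaged 2822.6, 3131.5 and 1623.1 CPM. No other marker of this list averaged more than the 351.0 CPM of Krt7 there. The 9 fibroblast or stellate markers summed to at most 1.25 CPM, with Lum and Postn at 0 counts in all libraries. Endothelial markers reached at most 1.17 CPM in sum and leukocyte markers 3.77 CPM. The 5 acinar markers summed to between 27.6 and 82.8 CPM. Cela1 alone of them passed the filter, Cpa1, Pnlip and Ptf1a were at 0 counts, and none but Cela1 exceeded 0.0409 CPM.

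The sequences below are short stretches of members' promoters, shown because they set side by side a protease that passed the count filter and neighbours that did not, and a pair of collagen genes that share one start region. They come from RefSeq (GRCm38.p6), where 37 of the 51 genes had a promoter window of 250 bases before to 50 after the start. Capitals mark a match to the AP-1 letters TGANTCA, read on both strands, which 7.81% of 32851 promoters in the table hold. Members with such a match were Itga3, Col6a1, Mmp3, Mmp10, Mmp13 and Plaur.
Mmp13, chr9:7272467-7272496, plus strand, match 35 bases before the start: accccaaagtggTGACTCAtcactatcatg
Mmp3, chr9:7445764-7445793, plus strand, match 46 bases before the start: tggaagcaattaTGAGTCAgttttcgggtg
Mmp10, chr9:7502267-7502296, plus strand, match 63 bases before the start: atagcacccatgTGAGTCAtgcttagtgac
Plaur, chr7:24462402-24462431, plus strand, match 69 bases before the start: aacccctggagcTGACTCActctttagcaa

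The next windows hold a match, in capitals, to the Egr letters GCGNGGGCG on either strand, present in 5.55% of promoters. Col4a1 and Col4a2, the chains of the commonest type IV collagen, start back to back and overlap by 22 bases of exon, so the same bases appear in both windows on opposite strands. Lamb1, Agrn, Tnc, Mmp14 and Plaur held a match as well. A match is a description of letters only.
Col4a1, chr8:11312798-11312827, minus strand: cttggagacgcCGCCCGCGCactgccgagg
Col4a2, chr8:11312797-11312826, plus strand: ccctcggcagtGCGCGGGCGgcgtctccaa

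Levels in the cytoplasm of NT cells spanned a wide range per length. Plaur, the urokinase receptor, was highest at 64.6 ± 6.63 CPM per kb (SD, n = 3), followed by Timp2 at 39.2 ± 5.59 CPM per kb, and the cultures of these genes overlapped neither each other nor Lama5. Lama5, the alpha chain of the laminins of adult epithelial basement membranes, came next at 17.0 ± 4.01 CPM per kb. Lama5, Timp1 (15.7 ± 3.17), Itgb1 (14.9 ± 0.985), Itga3 (13.2 ± 1.36) and Itgb5 (13.2 ± 0.925 CPM per kb) formed a run in which neighbours overlapped, and Itgb5 lay apart from the next gene, Itgb7. That gap depended on the length used. By the longest transcript Itga6 came next after Itgb5, at means of 13.5 and 14.2 CPM per kb, in place of 6.47 for Itga6 by all exons. The median was 2.24 CPM per kb over the 37 members and 4.86 CPM per kb over 13867 tested genes with a length.

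Among the integrin members Itgb1, Itga3 and Itgb5 were highest per length, with overlapping cultures. Itga3, an alpha chain of laminin receptors, was at 83.7, 68.3 and 74.4 CPM in the NT cytoplasm and Itgb1, the beta chain shared by most alpha chains, at 62.6, 56.4 and 63.9 CPM. Itga6, another laminin receptor chain, averaged 6.47 ± 1.02 CPM per kb against 1.14 ± 0.206 CPM per kb for its hemidesmosome partner Itgb4, and the ranges did not overlap. The vitronectin receptor chains were Itgav at 1.32 ± 0.192, Itgb3 at 1.57 ± 0.295, Itgb5 at 13.2 ± 0.925 and Itgb6 at 1.04 ± 0.199 CPM per kb, so Itgb5 was the highest of these 3 beta chains. Itga5, which binds fibronectin with Itgb1, averaged 3.79 ± 0.167 CPM per kb. Itga1, a collagen receptor chain, had the lowest mean per kb of exons among genes that passed the filter, at 0.0864 ± 0.0199 CPM per kb. Its cultures overlapped those of Col1a1, and by the longest transcript Col1a1 was lower, at 0.122 against 0.146 CPM per kb. Itgb7, best known on lymphocytes, averaged 10.2 ± 1.05 CPM per kb.

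The chains of the laminins differed. Lamc1, the gamma chain of most laminins, was at 7.68 ± 0.535 CPM per kb, Lamb2 at 3.83 ± 0.559 and Lamb1 at 0.892 ± 0.0798 CPM per kb, so Lamb2 lay above Lamb1 with no overlap. For the epithelial laminin-332, Lama3 had 76 counts over all 12 libraries and stayed under the filter, while Lamb3 was at 0.563 ± 0.0749 CPM per kb.

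Basement membrane genes were measured throughout, with Col17a1, a hemidesmosome collagen with 11 counts in all, as the exception. Col18a1 led at 49.9, 49.9 and 55.6 CPM, or 7.38 ± 0.464 CPM per kb. Agrn followed at 5.94 ± 0.925, Col4a1 at 5.32 ± 0.166, Nid1 (nidogen) at 4.13 ± 0.62 and Col4a2 at 3.79 ± 0.441 CPM per kb. Hspg2 (perlecan) at 1.47 ± 0.155 and Col7a1, the anchoring fibril collagen, at 0.45 ± 0.0603 CPM per kb were lowest. Col4a1 was above Col4a2 in every NT culture, and their ranges did not overlap.

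Interstitial collagens were low or under the filter. Col6a1 was highest of them at 0.38 ± 0.0784 CPM per kb, with 1.68, 1.32 and 2.00 CPM, and Col5a1 followed at 0.341 ± 0.0839 CPM per kb. Col1a1 reached 0.11 ± 0.013 CPM per kb, on 12 to 30 counts per library in NT cells. Its partner Col1a2 had 5 counts in all 12 libraries together, Col3a1 4, Col5a2 2, Col6a2 52, Col6a3 8 and Col12a1 32. For type I and type VI collagen the partner chains were thus under the filter where Col1a1 and Col6a1 passed it. A count of 0 in a library still allows up to 3 counts, so Col1a2, Col3a1 and Col5a2, with counts in few libraries, are described as not detectable above that at this depth. Col6a2 had counts in all 12 libraries and Col12a1 in 11, below what the test asked for.

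Among proteases and their inhibitors, Timp2 and Timp1 lay above Plau, Mmp14 and Mmp13 with no overlap, while Timp3 lay below Plau and Mmp14. Mmp14, the membrane-bound activator of Mmp2, was at 10.4, 11.6 and 11.8 CPM, or 1.89 ± 0.126 CPM per kb, and its inhibitor and partner Timp2 was at 39.2 CPM per kb as given above. Mmp2 itself, the gelatinase that this pair activates, had 3 counts in all libraries. Mmp13, a collagenase, was the other protease of its class that passed, at 0.424 ± 0.113 CPM per kb. Mmp3 had 5 counts, Mmp9 8 and Mmp10 29 over the 12 libraries, so the AP-1 letters shown above were present in Mmp3 and Mmp10 as in Mmp13, on few or no counts. Plau, which makes urokinase, was at 5.06 ± 0.422 CPM per kb, below its receptor Plaur without overlap.

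Matricellular genes modulate cell contact with matrix without building it. Sparc led them at 9.74, 8.31 and 7.41 CPM, or 2.24 ± 0.31 CPM per kb. Thbs1 (thrombospondin-1) was at 0.681 ± 0.226 CPM per kb and Tnc had 27 counts in all. Of the collagen crosslinking oxidases, Loxl2 was at 5.31, 5.22 and 6.11 CPM (1.03 ± 0.0904 CPM per kb), and Lox had 4 counts, all in 1 library. Timp3 was at 1.09 ± 0.322 CPM per kb, and 21.3% of its exon bases overlap Syn3 on the opposite strand, a gene with 46 counts in all libraries.

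**Figure D1:**
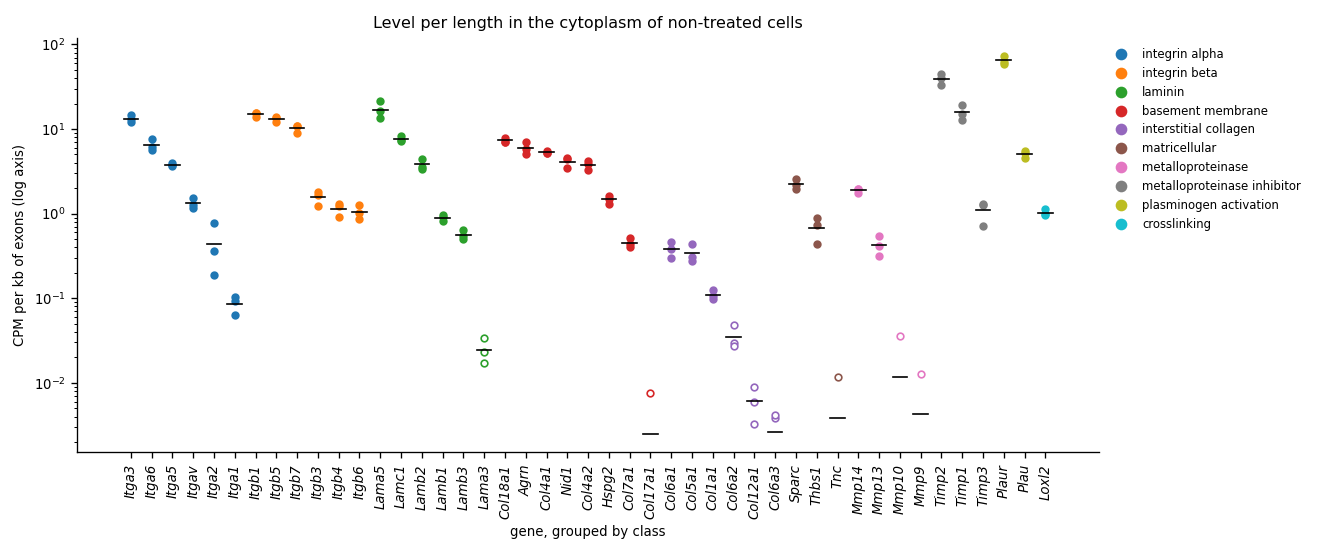
Level per length of the 45 genes with counts in the cytoplasm of NT cells, in CPM per kb of exons on a log axis; points are the 3 cultures, black bars their mean, colours the classes, and open points mark genes under the count filter (cultures at 0 cannot be drawn). Plaur sits at 64.6 CPM per kb and Col17a1 at 0.00252 CPM per kb.

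The first comparison asked how N6L changed the cytoplasmic mRNA. Thbs1, Itga2, Mmp13 and Plau rose and Col7a1, Itgb7 and Timp1 fell, and the other 30 tested members passed in neither direction. The 4 members that rose stand beside 14.5% of all genes called higher, and the 3 that fell beside 13.8% called lower. The median log2 change was -0.04 over the members and 0.04 over all genes.

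Thbs1 (chr2:118111876-118127133, GRCm38), a secreted regulator of adhesion and of blood vessel growth, was at 4.40, 5.36 and 2.65 CPM in NT and at 25, 14.1 and 14.7 CPM in N6L cultures. Every N6L culture was above every NT culture. The change was 4.3-fold (log2 2.10 ± 0.40 SE, adjusted p = 0.00322, edgeR).

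Itga2 (chr13:114833081-114932100), the alpha chain of a collagen receptor, was at 2.56, 5.49 and 1.35 CPM in NT and at 10.7, 9.39 and 8.86 CPM with N6L. The groups did not overlap, and the NT cultures differed among themselves more than the N6L cultures did. Its change was 3.08-fold (log2 1.62 ± 0.44, adjusted p = 0.0167). No other integrin alpha chain was called: Itga1 changed by log2 -0.05, Itga3 by 0.10, Itga5 by -0.04, Itga6 by 0.16 and Itgav by 0.16.

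Mmp13 (chr9:7272514-7283331), which cuts fibrillar collagen, was at 1.10, 1.45 and 0.851 CPM in NT and at 3.06, 2.91 and 2.43 CPM with N6L. All N6L cultures lay above all NT cultures, on 17 to 36 counts per NT library. The change was 2.46-fold (log2 1.30 ± 0.33, adjusted p = 0.0122). Mmp14 was at log2 0.11 ± 0.16.

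Plau (chr14:20836660-20843385) was at 12.2, 10.9 and 12.9 CPM in NT and at 14.7, 19.1 and 19.3 CPM with N6L. These groups did not overlap either. The change was 1.48-fold (log2 0.57 ± 0.16, adjusted p = 0.0199), while the receptor Plaur stood at log2 0.11 ± 0.18 (adjusted p = 0.669).

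Col7a1 (chr9:108953586-108984875) forms the fibrils that anchor the basement membrane to the tissue beneath. It was at 4.46, 5.31 and 4.11 CPM in NT and at 2.00, 2.00 and 1.73 CPM with N6L, every treated culture below every NT culture. The level was 2.42-fold lower (log2 -1.28 ± 0.20, adjusted p = 0.00165).

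Itgb7 (chr15:102215995-102231944) was at 29.7, 30.1 and 24.9 CPM in NT and at 15.1, 10.3 and 11.6 CPM with N6L, again with no overlap. It was 2.3-fold lower (log2 -1.20 ± 0.19, adjusted p = 0.00158). The other beta chains were not called, between log2 -0.17 for Itgb6 and 0.24 for Itgb4.

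Timp1 (chrX:20870166-20874735), an inhibitor of most metalloproteinases, was at 13.3, 11.4 and 17.0 CPM in NT and at 8.35, 10.1 and 8.98 CPM with N6L. The groups did not overlap, and the level was 1.52-fold lower (log2 -0.60 ± 0.19, adjusted p = 0.0286). Its relative Timp2 was at 130.0, 154 and 173.5 CPM in NT and at 211, 203 and 193 CPM with N6L, which did not overlap but missed the limit (log2 0.41 ± 0.15, adjusted p = 0.0586). Timp3 stood at log2 -0.26 ± 0.30.

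None of the 5 tested laminin members was called in the cytoplasm. Lamb1 was at log2 -0.76 ± 0.28 (adjusted p = 0.0542), Lama5 at -0.42 ± 0.20, Lamb2 at -0.13 ± 0.19 and Lamc1 at 0.41 ± 0.19. Col4a1 (-0.20 ± 0.17) and Col4a2 (-0.14 ± 0.17) lay within 1 SE of each other, and differences between chains were not tested. All 7 tested basement membrane genes had a negative change, of which Col7a1 alone was called.

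N6L and NT cultures did not overlap for 14 of the 37 members, beside 54.9% of all genes. Beyond the called genes these were Lamb1, Lamc1, Col4a1, Col18a1, Agrn, Timp2 and Loxl2. Loxl2 was at 7.14, 7.73 and 7.83 CPM with N6L (log2 0.45 ± 0.21, adjusted p = 0.118) and Col18a1 at 40.3, 36.8 and 40.3 CPM (log2 -0.40 ± 0.18, adjusted p = 0.104).

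Without N6L culture 2 the cytoplasm held 1 member called higher (Thbs1) and 2 lower (Col7a1 and Itgb7). Without NT culture 1 it held 2 higher and 2 lower. Over all genes these fits called 567 higher and 740 lower, and 1075 and 1204, against 2013 and 1922 with all cultures. Itga2 was lost without N6L culture 2, NT culture 1 or NT culture 4 (adjusted p at most 0.0766), Plau without N6L culture 2, NT culture 1 or NT culture 2 (at most 0.142), Mmp13 without N6L culture 2 (log2 1.21), and Timp1 without N6L culture 1 or 2 or NT culture 1 or 4 (at most 0.102). Scaling by RLE size factors gave 4 higher and 5 lower, with Lamb1 and Agrn added, and library totals alone gave 5 and 2. Over all genes these scalings gave 1863 and 2175, and 2588 and 1363.

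**Figure D2:**
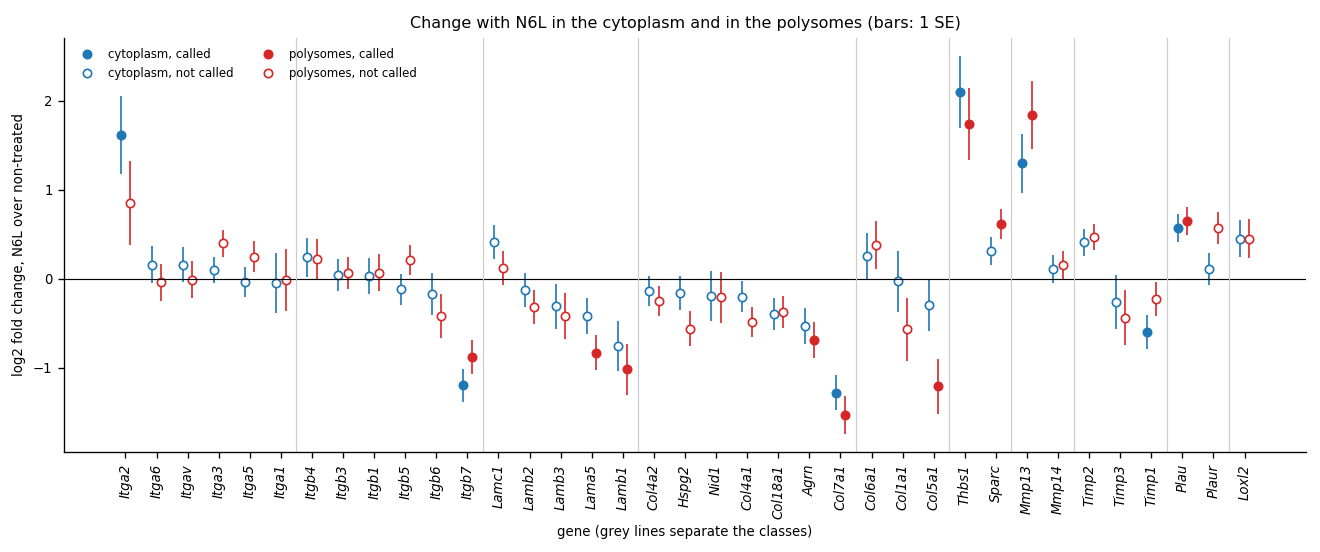
Log2 fold change of N6L over NT cells for the 37 tested genes in the cytoplasm (blue) and in the polysomes (red), with bars of 1 SE and filled points for called genes; grey lines separate the classes. Thbs1, Mmp13 and Plau are filled above 0 in both fractions and Col7a1 and Itgb7 filled below 0 in both.

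Over all genes the cytoplasmic change had a Spearman correlation of 0.5 with transcript length and -0.21 with GC, and over the 37 members it had -0.23 and -0.47, so length went the other way among the members. These are descriptions across genes that share the same libraries. Tested members had a median transcript of 5595 bases and 55% GC, against 2727 bases and 50.5% GC over all tested genes. A fit with an offset for length and GC within each library called 6 members higher and 10 lower in the cytoplasm, beside 14.2% and 14.5% of all genes. The members' median was then -0.26. In this fit the cytoplasmic change had a correlation of -0.5 with length and -0.36 with GC over the members. Over all genes these were 0.06 and -0.02. The offset thus flattened the length trend of all genes, while that of the members became steeper.

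In that corrected fit 6 of the 7 basement membrane genes were lower: Col7a1 (log2 -1.56, adjusted p = 0.000298), Agrn (-0.82, 0.00671), Col18a1 (-0.60, 0.0037), Hspg2 (-0.51, 0.0286), Col4a1 (-0.50, 0.0206) and Col4a2 (-0.38, 0.0446). The exception was Nid1. Lamb1 (-1.13, 0.00376), Lama5 (-0.77, 0.00399), Itgb7 and Timp3 (-0.61, 0.0499) were lower as well. Sparc (0.64, 0.0271) and Plaur (0.38, 0.0417) joined Thbs1, Itga2, Mmp13 and Plau among those higher, and Timp1 was no longer called. Which of the fits lies closer to the cells' mRNA was not tested.

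The second comparison took the same cultures' polysomes, the mRNA carried by several ribosomes. Mmp13, Thbs1, Plau and Sparc were higher with N6L, and Col7a1, Col5a1, Lamb1, Itgb7, Lama5 and Agrn were lower. The 4 higher members stand beside 6.01% of all genes called higher, and the 6 lower ones beside 3.66% called lower. Of the laminin and basement membrane genes 4 of 12 tested were called, all lower, and none of 6 integrin alpha chains was. The median was -0.01 over the members and 0 over all genes.

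Mmp13 was at 0.690, 0.360 and 0.271 CPM in NT polysomes, on 9 to 13 counts per library, and at 2.01, 1.46 and 0.981 CPM with N6L. No N6L culture reached down to the NT cultures. The change was 3.58-fold (log2 1.84 ± 0.38, adjusted p = 0.0105).

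Thbs1 was at 2.81, 3.73 and 2.5 CPM in NT and at 17.0, 8.23 and 4.95 CPM with N6L, without overlap but with a wide spread among treated cultures. It was 3.34-fold higher (log2 1.74 ± 0.40, adjusted p = 0.0178). Plau was at 9.12, 10.8 and 8.68 CPM in NT and at 14.5, 15.8 and 14.8 CPM with N6L (1.57-fold, log2 0.65 ± 0.16, adjusted p = 0.0253), with every treated culture above.

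Sparc (chr11:55394500-55423183), a collagen-binding matricellular protein, was at 7.64, 7.21 and 6.75 CPM in NT and at 11.2, 10.9 and 11.2 CPM with N6L. The treated cultures lay close together and above all NT cultures. The change was 1.54-fold (log2 0.62 ± 0.17, adjusted p = 0.0312).

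Col7a1 was at 3.18, 3.18 and 3.74 CPM in NT and at 1.09, 1.15 and 1.27 CPM with N6L, clearly apart. It was 2.89-fold lower (log2 -1.53 ± 0.21, adjusted p = 0.00176). Itgb7 was at 22.1, 27.5 and 23.5 CPM against 15.1, 10.8 and 13.8 CPM, also apart and 1.84-fold lower (log2 -0.88 ± 0.19, adjusted p = 0.012).

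Col5a1 (chr2:27886425-28039514), a chain of the collagen that sets fibril width, was at 1.86, 2.23 and 3.67 CPM in NT polysomes and at 1.02, 1.19 and 1.19 CPM with N6L. The groups were apart in the polysomes (log2 -1.21 ± 0.31, adjusted p = 0.0273) but overlapped in the cytoplasm, at 2.63, 2.36 and 3.71 against 1.73, 2.38 and 2.86 CPM. There the change was log2 -0.30 ± 0.29.

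Lamb1 (chr12:31265234-31329644) was at 6.37, 5.24 and 4.16 CPM in NT polysomes and at 3.93, 2.23 and 1.47 CPM with N6L, just apart and 2.03-fold lower (log2 -1.02 ± 0.29, adjusted p = 0.0432). Lama5 (chr2:180176373-180225859) was at 110.3, 145 and 154 CPM against 86.0, 65.8 and 78.9 CPM, apart and 1.77-fold lower (log2 -0.83 ± 0.20, adjusted p = 0.023). Their trimer partner Lamc1 was not called, at log2 0.12 ± 0.19, and Lamb2 stood at -0.32 ± 0.19.

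Agrn (chr4:156165290-156197488), a heparan sulfate proteoglycan, was at 28.3, 31.9 and 43.1 CPM in NT and at 26.0, 20.3 and 17.9 CPM with N6L. The highest treated culture lay just under the lowest NT culture. It was 1.61-fold lower (log2 -0.69 ± 0.20, adjusted p = 0.0457). Hspg2 (log2 -0.56 ± 0.20, adjusted p = 0.0871) and Col4a1 (-0.49 ± 0.17, adjusted p = 0.0865) missed the limit, and Plaur, at 178, 207 and 169.8 CPM in NT and at 210.5, 258 and 354 CPM with N6L, was apart but missed it too (0.57 ± 0.18, adjusted p = 0.0607).

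Itga2 was not called in the polysomes. It was at 2.02, 2.06 and 1.45 CPM in NT and at 4.66, 3.94 and 1.23 CPM with N6L, where culture 3 lay below all NT cultures (log2 0.85 ± 0.47, adjusted p = 0.263). Timp1 was at 16.6, 14.8 and 18.9 CPM against 12.8, 13.1 and 17.0 CPM, with overlap (log2 -0.23 ± 0.19). In total 14 of 37 members had groups apart in the polysomes, beside 25.6% of all genes.

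Col7a1 alone was called in the polysomes when any culture was left out. Leaving out N6L culture 2 gave 0 higher and 1 lower, and leaving out N6L culture 3 gave 3 of each. NT culture 1 or 4 left out gave 1 and 2, and NT culture 2 gave 3 and 2. Over all genes the calls went from 835 higher and 508 lower to 129 and 17 without N6L culture 2. They were 692 and 421 without N6L culture 3, and 901 and 713 without N6L culture 1. Without NT cultures 1, 2 and 4 they were 164 and 48, 597 and 381, and 479 and 150. With the length and GC correction 5 members were higher (Mmp13, Thbs1, Plau, Sparc, Plaur) and 9 lower, beside 9.99% and 10.5% of all genes. Library totals alone gave 6 higher and 4 lower, beside 1082 and 312 of all genes. Those added to the lower side by the correction were Col4a1 (log2 -0.60, adjusted p = 0.0123), Col18a1 (-0.53, 0.00926) and Hspg2 (-0.53, 0.0341).

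**Figure D3:**
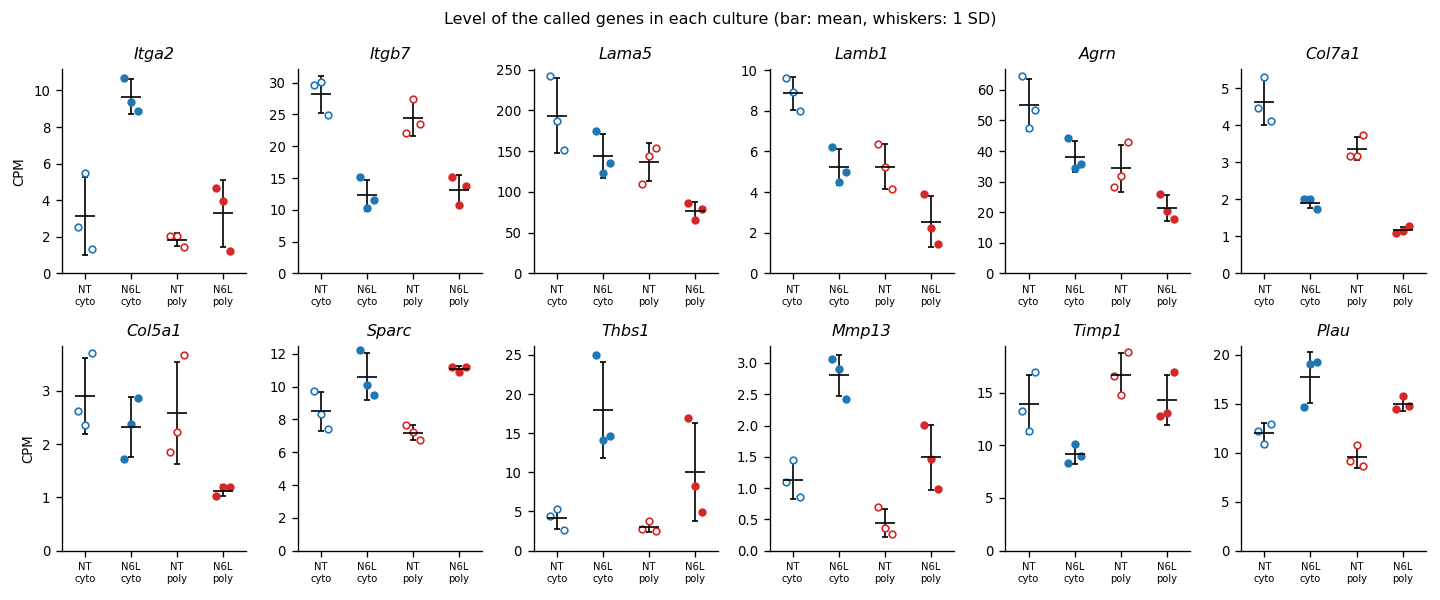
CPM in each culture of the 12 genes called in either fraction, with the mean as a bar and 1 SD as whiskers; blue is cytoplasm (cyto), red polysomes (poly), open points NT and filled points N6L. For Thbs1 the N6L points lie at 14.1 to 25 CPM in the cytoplasm above NT points of 2.65 to 5.36 CPM, and for Itga2 the polysomal N6L points run down to 1.23 CPM, under the NT points.

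The third comparison set polysomes against cytoplasm, as the log2 ratio of CPM in the same culture. Matrix mRNAs were mostly lower in polysomes in both treatments. In NT cells 29 of 37 members had a ratio under 0 in all 3 cultures, beside 27.7% of all genes, and in N6L cells 29 of 37, beside 36.5%. The median ratio was log2 -0.46 for the members in NT cells and -0.60 in N6L cells, against 0.03 for all genes in either.

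In NT cells edgeR called no member, and 0.209% of all genes lower, with 15 of 37 members at an unadjusted p under 0.05, beside 13.4% of all genes, and 6 members called lower by DESeq2, beside 1.93%. The fractions of a culture came from the same lysate. With culture as a block, Itgav (log2 -0.97, adjusted p = 0.0245), Itgb1 (-1.10, 0.0402) and Itga6 (-0.94, 0.0454) were called lower, beside 1.41% of all genes. Without N6L culture 3, 5 members were called lower in the unblocked fit, beside 2.46% of all genes.

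The lowest fitted ratios in NT cells were those of Mmp13, Nid1 and Itgb1. Mmp13 had log2 ratios of -0.62, -1.83 and -1.44 in the NT cultures, a wide spread on 9 to 13 counts per polysomal library (fit -1.44 ± 0.39, adjusted p = 0.149). Nid1, which links laminin to type IV collagen, had -1.14, -1.02 and -1.78. Itgb1 had -1.12, -0.84 and -1.34, Itgav -1.02, -0.75 and -1.12, and Itga6 -0.77, -0.89 and -1.15. The 3 genes above 0 in all NT cultures were Timp1 (0.31, 0.37 and 0.15), Timp2 (0.28, 0.17 and 0.21) and Plaur (0.19, 0.14 and 0.06).

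In N6L cells 16 members were called lower in polysomes and 2 higher, beside 20.6% and 18.4% of all genes. Those lower were the integrin chains Itga2, Itga6, Itgav and Itgb1, the laminin chains Lama5, Lamb1 and Lamc1, the basement membrane genes Nid1, Hspg2, Agrn, Col4a1, Col7a1 and Col4a2, and Col5a1, Mmp13 and Loxl2. Timp1 and Plaur were higher. With culture as a block 21 were lower, beside 27.6% of all genes.

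Itga2 had the lowest ratio, log2 -1.19, -1.24 and -2.79 in the N6L cultures against -0.34, -1.38 and 0.09 in NT, and culture 3 stood far below the others (fit -1.55 ± 0.44, adjusted p = 0.015). Nid1 had -0.87, -1.16 and -2.37 (fit -1.33 ± 0.29, adjusted p = 0.00591). Itga6 had -0.81, -1.03 and -1.78 (fit -1.15 ± 0.22, adjusted p = 0.0044). For each of these the N6L culture 3 was lowest.

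Itgb1 had -0.67, -1.0 and -1.68 (fit -1.06 ± 0.21, adjusted p = 0.00461), Lamb1 -0.66, -0.98 and -1.72 (fit -1.02 ± 0.29, adjusted p = 0.0156) and Lamc1 -0.69, -0.89 and -1.48 (fit -0.98 ± 0.19, adjusted p = 0.00461). Culture 3 was lowest here too. Itgav was more even at -1.01, -1.09 and -1.37 (fit -1.14 ± 0.20, adjusted p = 0.00427).

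Several large matrix mRNAs had even ratios over the N6L cultures. Lama5 was at -1.02, -0.90 and -0.78 (fit -0.91 ± 0.20, adjusted p = 0.00636), Hspg2 at -0.99, -0.90 and -0.71 (fit -0.87 ± 0.20, adjusted p = 0.00669) and Agrn at -0.76, -0.76 and -1.0 (fit -0.83 ± 0.20, adjusted p = 0.00787). Their NT cultures ran from -1.13 to 0.03 for Lama5, from -0.76 to -0.34 for Hspg2 and from -1.19 to -0.31 for Agrn, so the treatments overlapped for all of them. Col5a1 was at -0.72, -0.97 and -1.22 (fit -1.05 ± 0.30, adjusted p = 0.0166).

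Col4a1 was at -0.50, -0.85 and -1.15 (fit -0.81 ± 0.17, adjusted p = 0.00548) and its partner Col4a2 at -0.59, -0.57 and -0.45 (fit -0.54 ± 0.17, adjusted p = 0.0218). Col7a1 was at -0.84, -0.76 and -0.43 (fit -0.71 ± 0.21, adjusted p = 0.0193), Mmp13 at -0.59, -0.96 and -1.25 (fit -0.90 ± 0.32, adjusted p = 0.0373), and Loxl2 stood at log2 -0.68 ± 0.21 in the fit. These all lay below 0 in each N6L culture.

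On the other side, Timp1 was at log2 0.61, 0.38 and 0.92 (fit 0.64 ± 0.19, adjusted p = 0.0166) and Plaur at 0.24, 0.57 and 0.87 (fit 0.59 ± 0.18, adjusted p = 0.0204). Timp2 was at 0.10, 0.22 and 0.52 and was not called (fit 0.28 ± 0.15). Their transcripts have 883 bases for Timp1, 1506 for Plaur and 3709 for Timp2, against a median of 5595 over the tested members. The other members with transcripts shorter than that of Timp2 went both ways. Plau (2342 bases), Mmp14 (2596) and Mmp13 (2673) had fitted ratios of -0.24, -0.25 and -0.90. Sparc (1366), Itgb7 (2683) and Itgb5 (3056) had 0.07, 0.11 and 0.41.

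With N6L culture 2 left out, 7 members had lower and 0 higher called ratios in N6L cells, and with culture 3 left out 8 and 0. Over all genes these fits called 814 lower and 393 higher, and 1232 and 435, against 2856 and 2559 with all cultures. Itga6, Itgav, Itgb1, Lama5, Lamc1, Hspg2 and Nid1 were called whichever culture was left out. Without N6L culture 2 all 7 lay just under the limit, as the smallest adjusted p of any gene was 0.0485 there (edgeR).

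**Figure D4:**
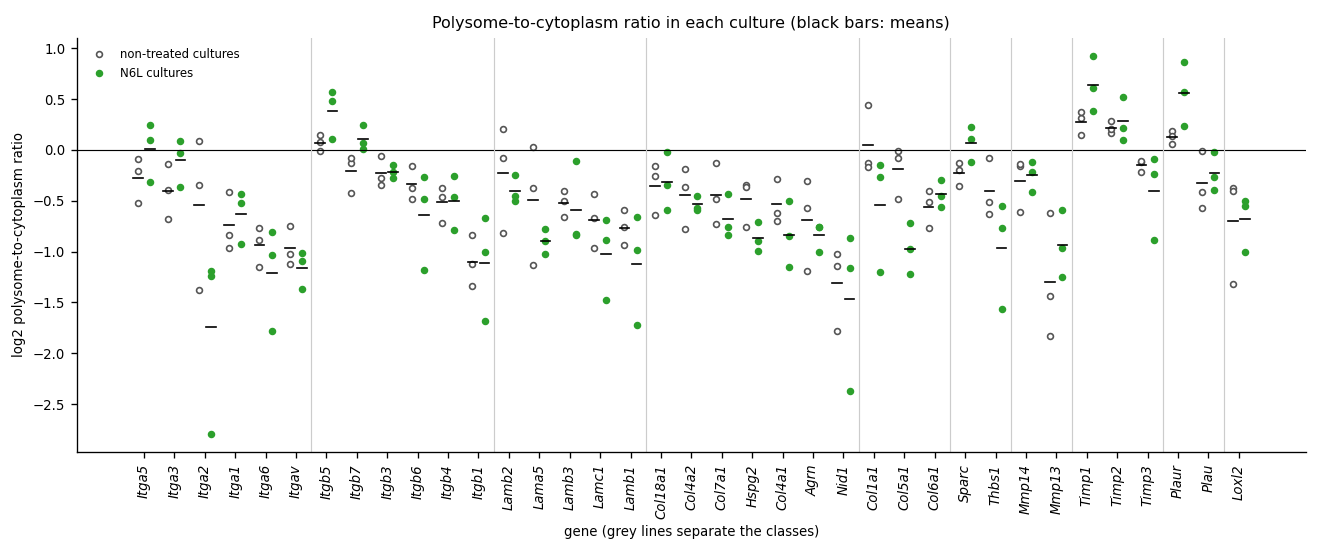
Log2 polysome-to-cytoplasm ratio of the 37 tested genes in each culture, open grey points for NT and filled green points for N6L, with black bars as means and grey lines between classes. Most points lie below 0, and Timp1, Timp2 and Plaur lie above 0 in all 6 cultures.

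Over all genes the N6L ratio had a Spearman correlation of -0.62 with transcript length and 0.54 with GC, and over the 37 members -0.64 and 0.25, as descriptions across genes of the same libraries. With culture as a block and an offset for length and GC, 16 members were called lower in N6L cells and none higher, beside 18.1% of all genes lower. These were not the same 16, since Itgb4, Col6a1, Sparc, Thbs1 and Mmp14 stood in place of Itgav, Lama5, Col7a1, Mmp13 and Loxl2. The offset without the block called 6 lower, beside 1308 of 13889 genes. With the block and the offset, 8 were called lower in NT cells, beside 2.52%. The members' median was then log2 -0.35 in both treatments.

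In that fit and in N6L cells Nid1 was at log2 -0.93 (adjusted p = 0.0114), Itga6 at -0.86 (0.00278), Itgb1 at -0.66 (0.0061), Lamb1 at -0.76 (0.0136) and Agrn at -0.59 (0.0122). Sparc turned from 0.07 to -0.55 (adjusted p = 0.00508), and Timp1 from 0.64 to -0.04 and Plaur from 0.59 to 0.00 lost their calls. Itga1, measured on 12 to 78 counts per library, came to 0.60 and was not called. In NT cells Itgb1 (-0.92, 0.0121), Itga6 (-0.86, 0.0136) and Nid1 (-1.19, 0.0208) led, with Itgav, Itga3, Lamc1, Agrn and Sparc.

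**Figure D5:**
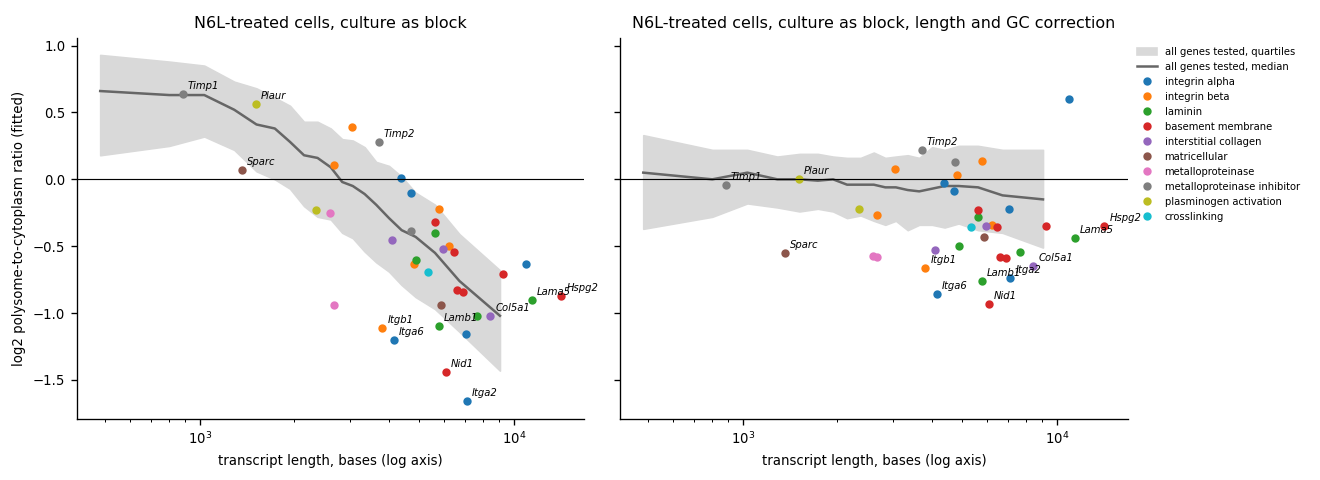
Fitted log2 polysome-to-cytoplasm ratio in N6L cells against transcript length in bases (log axis), with culture as a block (left) and with length and GC correction added (right); coloured points are the 37 members by class, the grey line and band the median and quartiles of all tested genes in 20 length bins. The grey line falls with length on the left and is near 0 on the right, where Nid1 stays at -0.93 and Timp1 comes to -0.04.

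The translational index, the N6L ratio minus the NT ratio, asked whether polysome association itself changed. No member passed, beside 0% of all genes in edgeR, and DESeq2 called no member. Only Col5a1 had an unadjusted p under 0.05 (index -0.91 ± 0.42 SE, p = 0.0483 and adjusted p = 0.555, edgeR), as had 1074 of all genes. That fit ignores that both fractions of a culture share a lysate. With culture as a block no member was called either, and the smallest adjusted p over all genes was 0.196 (edgeR). The index ran from -0.91 to 0.54 with a median of -0.02 over the members.

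For 5 members the NT and N6L ratios did not overlap, beside 29.7% of all genes. Col5a1 was lower with N6L, at -0.48, -0.08 and -0.01 in NT against -0.72, -0.97 and -1.22. The others were higher with N6L: Plaur by a mean of 0.43, Timp1 by 0.36, Itgb7 by 0.32 and Sparc by 0.30 log2. The exact two-sided permutation test over cultures gave p = 0.1 for each, the smallest it allows with 3 against 3. The missed limit does not show that the ratios were alike. Over the 37 members the index had a Spearman correlation of -0.78 with transcript length, against -0.53 over all genes. Timp1, Sparc, Plaur and Itgb7 have transcripts of 883, 1366, 1506 and 2683 bases, and Col5a1 one of 8406. Under the alternatives run, the fitted index came down to 0.12 for Plaur, 0.01 for Timp1, 0.07 for Itgb7 and -0.05 for Sparc. That of Col5a1 stayed at -0.58 or below. Leaving out a culture alone brought the index no lower than 0.28 for Plaur, 0.22 for Timp1, 0.22 for Itgb7 and 0.24 for Sparc. With the length and GC correction the index had a correlation of -0.27 with length over the members and -0.06 over all genes. No member was called in that fit. Apart from this offset, whether these shifts go beyond length was not tested.

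Other genes of the pathway, 149 in all of which 94 were tested, were called higher in 15 and lower in 6 cases in the cytoplasm, beside 14.5% and 13.8% of all genes, and higher in 11 and lower in 4 in the polysomes, beside 6.01% and 3.66%. The counts of their sublists below stand beside the same shares. Their median changes were log2 0.14 and 0.13. Of 25 adhesion plaque and hemidesmosome adaptors 5 were higher and 1 lower in the cytoplasm and 1 higher and 2 lower in the polysomes. Of 18 tested other proteases and inhibitors 5 were higher and 2 lower, and 3 and 2. Of 11 other matrix receptors 1 was higher and 0 lower in the cytoplasm, and 4 and 0 in the polysomes. Of 16 tested other matrix proteins 3 were higher and 1 lower, and 3 and 0. None of 3 tested other integrins was called in these fractions. Collagen processing genes had 1 higher and 2 lower of 21, and none in the polysomes.

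Some of these bind members described above, and they were named after their values were seen. Fn1, the fibronectin that Itga5 with Itgb1 binds, rose 2.06-fold in the cytoplasm (adjusted p = 0.00625) while Itga5 did not pass. Plec, the plectin that ties Itgb4 to keratins, was 2.16-fold lower in polysomes (adjusted p = 0.00821), and Itgb4 itself stood at log2 0.22 ± 0.23 there.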

How the data were processed

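mPDAC RNA from 48 sequenced samples was used, which are 12 libraries in 4 technical replicates. Per the labels and the study's methods the authors sequenced TruSeq stranded polyadenylated libraries, and the submitters' processing notes name bcl2fastq 2.18.0.12, STAR, HTSeq 0.5.3 and mm10. The deposited values are raw counts per Ensembl gene. The sources used here do not give the annotation release, the strand setting or how multiply mapped reads were handled. Gene names, lengths and GC came from GENCODE vM21 (GRCm38), which held 50376 of the 50600 identifiers.

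Technical replicates differed little beyond counting error, with a chi-square over its degrees of freedom of 1.018 to 1.042, and were summed. In 3 technical replicates of the N6L culture 2 cytoplasm, the description names another sample than the title. They were kept by title. Group means of 4 groups were fitted with edgeR 4.0.16 in R 4.3.3 (filterByExpr, TMM, quasi-likelihood test, no block), with Benjamini-Hochberg adjustment over all 13889 genes and a limit of 0.05. DESeq2 1.42.0 was an alternative, as were other scalings, filters, left-out cultures, a length and GC offset and culture blocks. Per-culture ratios used a prior count of 2. The fit was tested on simulated data. Fractions of a culture are paired by their lysate (correlations of their deviations 0.0368 to 0.645). Values per culture were printed for called genes, at most the 15 largest per comparison, and for the highest gene of each class. Members and lists were chosen with earlier results of these data known. Some results are not reported here.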

Additional observations from a re-analysis of the deposited data

How the results depend on the processing

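Called members kept their direction under all alternatives run, with the exception of Timp1 in the N6L polysome-to-cytoplasm ratio, which came to log2 -0.04 with the length and GC correction and to -0.04 with the replicate block by culture added. Sparc, not called there, came to -0.55 in the latter fit. Calls were less stable. In the cytoplasm (4 higher, 3 lower) the lower count was 5 with RLE size factors, 5 with DESeq2, 6 with only the groups compared and 10 with the length and GC correction, and the higher count was 2 with technical replicate a alone. Over all genes those lower counts were 2175, 2469, 2863 and 2008, against 1922 in the main fit, and that higher count 1637 against 2013. Leaving out a culture gave 1 to 5 members higher and 2 to 4 lower, beside 567 to 2173 and 740 to 1907 of all genes. In the polysomes (4 and 6) technical replicate a alone gave 2 and 3 and only the groups compared 2 and 1. Over all genes these fits gave 481 and 287, and 258 and 75, against 835 and 508 in the main fit. Left-out cultures gave 0 to 5 members higher and 1 to 6 lower, beside 129 to 901 and 17 to 713 of all genes. For the ratio in NT cells the main fit called 0 members lower, beside 29 of all genes. There were 7 lower with no filter (610 of the 25915 genes then kept), 6 with DESeq2 (268 of all genes) and 4 with only the groups compared (137). The length and GC correction gave 3 (78), the replicate block by culture 3 (196), and that block with the correction 8 (350). Without the replicates with conflicting labels there was 1 (33), and with a culture left out 0 to 5 (0 to 342). For the ratio in N6L cells (2 higher, 16 lower) the higher count was 1 with library totals alone, 1 with only the groups compared, and 0 with the correction, alone or with the block. Over all genes these higher counts were 1762, 1928, 1008 and 1923, against 2559 in the main fit. The correction alone gave 6 members lower, beside 1308 of all genes, against 2856 in the main fit. Left-out cultures gave 0 to 3 members higher and 7 to 17 lower, beside 393 to 2965 and 814 to 3059 of all genes. The index called no member under any alternative run.

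Culture numbers are shared by NT and N6L cultures 1 and 2 only as numbers (correlations 0.00756 to 0.296). The replicate block by culture number gave 6 higher and 4 lower in the cytoplasm, and 5 and 5 in the polysomes. Over all genes it gave 2513 and 2224, and 831 and 524. Library totals alone moved the median change of all genes in the cytoplasm from log2 0.04 to 0.19, and Timp1 was then no longer called. Mmp13 has no value where at least 10 counts were asked in every library. A prior count of 0.5 moved no index per culture by more than 0.09, and the longest transcript in place of the exon union moved no gene by more than 4 places in the order of levels.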
